A study of Mus musculus with 3 samples.

Results

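The cells described here are 80 liver barcodes that passed a gate written for classical monocytes, out of 3230 barcodes kept from a matrix of 4638. Classical monocytes are circulating phagocyte precursors that leave the bone marrow through the chemokine receptor Ccr2, carry the surface protein Ly6C and enter inflamed tissue, where they can become macrophages. In the liver they share the sinusoids with patrolling nonclassical monocytes, with dendritic cells, which present antigen to T cells, and with Kupffer cells, the resident macrophages. Each of these phagocytes can take up injected nanoparticles.

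A kept barcode had at least 200 genes and at most 20% of its unique molecular identifiers (UMIs, the counted transcript molecules) from mitochondrial genes. The gate asked for at least 3 UMIs summed over Chil3, F13a1 and Ccr2 and at least 3 of Lyz2. It allowed at most 1 UMI of Siglech, at most 2 summed over the type 2 dendritic genes Cd209a, Clec10a and Mgl2, and at most 3 over the nonclassical monocyte genes Ace, Cd300e, Ear2 and Treml4. At most 2 UMIs were allowed over the Kupffer genes Clec4f, Cd5l and Marco and at most 3 over the neutrophil genes Retnlg, Csf3r and Cxcr2. The cells were thus chosen by their measured UMIs of these genes, which are given below as description.

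All cells came from Ai14 (LSL-Tomato) mice, which carry a red fluorescent reporter that Cre recombinase switches on. One library was made per treatment 3 h after injection: PBS, 20a-LNP or 20mix-LNP. The LNPs are lipid nanoparticles, and both carried Cre mRNA at 0.3 mg/kg. The series title names nanoparticle stereochemistry as the subject. Non-parenchymal cells were released from perfused livers with enzymes and sorted by flow cytometry. Neither the sort gates nor the number of mice behind a library is stated in the labels. The barcodes carry the suffixes 1, 2 and 3, and no label or file used here ties a suffix to a treatment. No treatment was therefore compared, and each library is given under its suffix as 1 sample without a group. Intervals are exact 95% intervals and cover counting error only.

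The gated cells were 2.48% of the kept barcodes (80 of 3230, Clopper-Pearson interval 1.97 to 3.07). By library they were 18 of 761 for suffix 1 (2.37%), 32 of 1119 for suffix 2 (2.86%) and 30 of 1350 for suffix 3 (2.22%). The intervals of the 3 shares overlap, from 1.41 to 3.71, from 1.96 to 4.01 and from 1.504 to 3.16. Together the cells held 1002344 UMIs, with a median of 12168 per cell and a range of 2404 to 29887. The whole libraries held 6144949, 8754827 and 9211407 UMIs. In the whole matrix 3 barcode sequences occurred in more than 1 library, and none of them lay in the gate.

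The label "classical monocytes" held for a minority of the 80 cells. Ly6c2, the Ly6C gene and the one marker of the label that the gate did not use, had a UMI in 28 of 80 cells. Chil3, a chitinase-like lectin of classical monocytes, had one in 9 cells, and F13a1, the A chain of coagulation factor XIII, in 18. Ccr2 was counted in all 80, and 60 cells passed the gate on Ccr2 with no UMI of Chil3 or F13a1. Xcr1 and Clec9a, which encode a chemokine receptor and a dead-cell receptor of type 1 conventional dendritic cells, had UMIs in 26 and 29 of the gated cells. C1qa, a complement chain made by macrophages, had UMIs in 24. The group is therefore called the gated cells below, and no new cell type name is given to it.

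The gate excluded several classes but had no upper limit on Xcr1, Clec9a or C1q. Of the kept barcodes 370 had at least 3 UMIs over Chil3, F13a1 and Ccr2, and 131 of those also had 3 of Lyz2. The limit on type 2 dendritic genes then removed 33, the limit on nonclassical genes 13, Siglech 6, the neutrophil genes 4 and the Kupffer genes 0, with some barcodes removed by more than 1 limit. Barcodes with at least 3 UMIs of Chil3 and F13a1 together numbered 23 among all kept barcodes, and 14 of them were gated. The 9 others failed 1 or more rules: 6 exceeded the limit on neutrophil genes, 3 fell short on Lyz2, 2 exceeded the limit on type 2 dendritic genes and 1 that on nonclassical genes, and these counts overlap. Just outside the threshold of the Chil3, F13a1 and Ccr2 sum lay 9 barcodes at 2 UMIs, none with Ly6c2. Just inside lay 11 at 3 UMIs, 3 of them with Ly6c2. For Lyz2, 7 barcodes stood at 2 UMIs and 4 at 3.

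For description, the gated cells were divided in 3 after their values had been seen. The Xcr1 subset is the 29 cells with at least 5 UMIs over Xcr1, Clec9a and Wdfy4, the last an endosomal protein that type 1 dendritic cells need for cross-presentation. The F13a1 subset is the 14 remaining cells with at least 3 UMIs over Chil3 and F13a1. The Ccr2 subset is the 37 cells left. Levels are in CPM, counts scaled to a total of 1000000 UMIs summed over a group of cells. The Xcr1 subset held 51.8% of all gated UMIs on 36.3% of the cells, since its median cell had 18486 UMIs against 11614 and 8476 in the F13a1 and Ccr2 subsets. A pooled level of the gate thus weights that subset above its cell number.

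**Figure D1:**
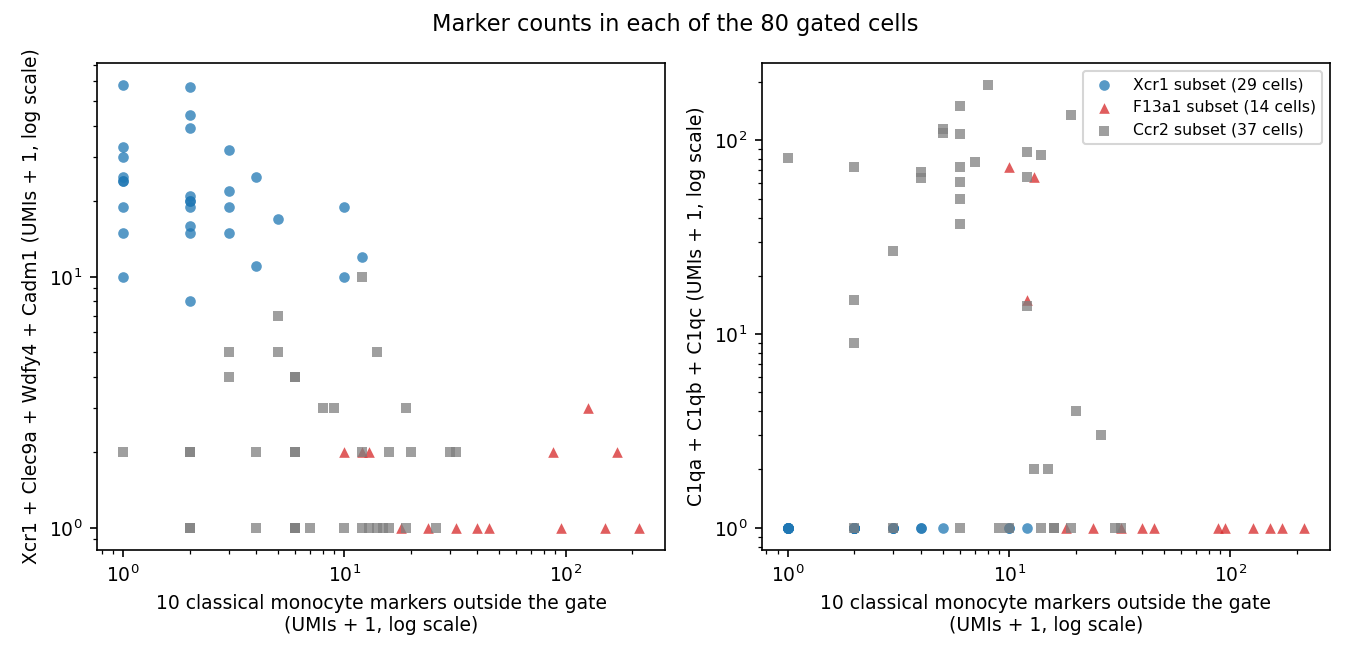
Each point is 1 of the 80 gated cells. The x axes give UMIs + 1 over 10 classical monocyte markers that the gate did not use (among them Ly6c2, Fn1, Vcan, Hp, Gda, Mgst1, Ms4a4c, Itgam and Cd14). Plac8, a further marker outside the gate, is left out of the 10. The y axes give UMIs + 1 over 4 type 1 dendritic markers (left) and over the 3 C1q chains (right), all on log scales. The Xcr1 subset (29 cells, circles) lies at the upper left of the left panel and on the floor of the right panel, and the F13a1 subset (14 cells, triangles) reaches 214 monocyte UMIs in a cell.

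In the plot of marker counts per cell, the 10 plotted markers outside the gate separated the F13a1 subset from the Xcr1 subset with little overlap. Their sum in a cell had a lowest value of 9, a median of 41.5 and a highest value of 214 UMIs in the F13a1 subset. In the Xcr1 subset it ran from 0 through a median of 1 to 11, and in the Ccr2 subset from 0 through 6 to 31. Plac8, also a classical monocyte marker outside the gate, was left out of this sum. It did not separate the subsets, with 7 to 54 UMIs in a cell of the Xcr1 subset and 1 to 62 in the F13a1 subset. Of the 4 type 1 dendritic markers 3 define the Xcr1 subset, so their separation in the left panel was fixed by the split and is a description. Their sum had a median of 19 UMIs in the Xcr1 subset (7 to 57), 0 in the F13a1 subset (0 to 2) and 1 in the Ccr2 subset (0 to 9). C1qa, C1qb and C1qc were at 0 in all 29 cells of the Xcr1 subset and at a median of 26 UMIs in the Ccr2 subset, with a highest cell at 192.

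Start regions of 4 genes are shown because these genes carry the division: Ly6c2 and F13a1 mark the F13a1 subset, Xcr1 the Xcr1 subset, and Ccr2 is what all 80 cells share. Each runs from 250 bases before to 50 after a RefSeq start (assembly GRCm38.p6), 5′ to 3′ on the gene's strand. The capitals mark GGAAGT, read on either strand, a core that the myeloid factor PU.1 can bind. Ly6c2 lies at chr15:75111922-75112221 (minus strand), F13a1 at chr13:37050195-37050494 (minus), Ccr2 at chr9:124101933-124102232 (plus) and Xcr1 at chr9:123861980-123862279 (minus).
Ly6c2: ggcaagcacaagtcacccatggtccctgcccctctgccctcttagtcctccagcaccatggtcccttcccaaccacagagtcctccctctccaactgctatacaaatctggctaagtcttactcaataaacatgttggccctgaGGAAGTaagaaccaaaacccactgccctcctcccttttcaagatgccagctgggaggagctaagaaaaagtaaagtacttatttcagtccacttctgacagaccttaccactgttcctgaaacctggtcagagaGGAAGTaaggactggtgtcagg
F13a1: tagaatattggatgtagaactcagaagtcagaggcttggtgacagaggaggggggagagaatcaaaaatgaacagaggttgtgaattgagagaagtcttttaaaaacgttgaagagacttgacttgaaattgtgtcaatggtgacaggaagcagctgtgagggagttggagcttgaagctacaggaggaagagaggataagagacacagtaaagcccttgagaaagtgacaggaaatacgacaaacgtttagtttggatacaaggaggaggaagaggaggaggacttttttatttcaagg
Ccr2: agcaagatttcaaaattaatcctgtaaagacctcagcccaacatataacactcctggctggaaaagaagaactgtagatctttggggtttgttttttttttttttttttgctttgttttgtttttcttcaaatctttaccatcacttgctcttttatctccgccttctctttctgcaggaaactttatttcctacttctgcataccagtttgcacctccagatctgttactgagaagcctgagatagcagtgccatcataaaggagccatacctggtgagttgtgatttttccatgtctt
Xcr1: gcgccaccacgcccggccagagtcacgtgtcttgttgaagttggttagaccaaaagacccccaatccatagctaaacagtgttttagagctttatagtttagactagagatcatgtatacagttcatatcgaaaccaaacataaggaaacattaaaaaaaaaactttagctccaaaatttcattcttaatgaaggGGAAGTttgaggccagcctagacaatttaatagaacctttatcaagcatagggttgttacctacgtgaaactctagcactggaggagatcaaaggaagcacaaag

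On either strand GGAAGT was found in 2 of these 4 windows, with 2 copies in Ly6c2 and 1 in Xcr1, and in 7809 of all 32851 windows of the same length (23.8%). A match is a description of these letters only. The gene for PU.1 itself, Spi1, stood at 404 CPM in the Xcr1 subset, 535 in the F13a1 subset and 654 in the Ccr2 subset. Ly6c2 has a near-identical neighbour, Ly6c1, and the last 300 transcript bases of the pair are 96.0% identical over their alignment. Chil3 and Chil4 are 89.4% identical over the same stretch. Ly6c1 and Chil4 had 0 UMIs in the gated cells, and the labels do not state how reads matching both copies were counted, so the levels of Ly6c2 and Chil3 are uncertain to that extent.

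The F13a1 subset carried the classical monocyte genes at the highest level of all groups compared. The 11 markers outside the gate, Plac8 included, summed to 9070 CPM there, against 2546 in the Ccr2 subset, 1593 in the Xcr1 subset and 2810 in cells gated as nonclassical monocytes. Fn1, the matrix protein fibronectin, stood at 1664 CPM against 36.0 in the Ccr2 subset and 0 UMIs in the Xcr1 subset. Hp, the haemoglobin-binding haptoglobin, stood at 1056, 48.0 and 0. It was not confined to this subset, with a UMI in 12 of its 14 cells and in 69 of 122 cells of the nonclassical gate. Cd14, a co-receptor for bacterial lipopolysaccharide, stood at 1417, 171 and 1.93, and Ly6c2 at 622, 96.0 and 32.7. Lyz2, the lysozyme of myeloid cells and a gate gene, stood at 30264 CPM in the F13a1 subset, 8237 in the Ccr2 subset and 738 in the Xcr1 subset. Plac8 kept this order with smaller gaps, at 2206, 1520 and 1483 CPM in the F13a1, Ccr2 and Xcr1 subsets. It stood at 1147 CPM in 44 barcodes outside the gate. These were chosen for at least 3 UMIs over Xcr1 and Clec9a, at most 1 of Siglech and at most 2 over Clec4f, Cd5l and Marco. They also had at most 3 UMIs over the endothelial genes Stab2 and Ptprb.

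Ly6c2 shows how much detection depended on depth, and it is set beside 2 reference gates. It had a UMI in 10 of 14 cells of the F13a1 subset, 9 of 29 of the Xcr1 subset and 9 of 37 of the Ccr2 subset. With each cell thinned to 2000 UMIs the counts were 7 (50%, interval 23.04 to 76.96), 1 (3.45%, 0.0873 to 17.8) and 3 (8.11%, 1.70 to 21.9). In cells gated as lymphoid, as a reference with a median of 6394 UMIs, the thinned share was 3.88% (24 of 619), and in those gated as endothelial, with a median of 5886, it was 0.892% (7 of 785). The interval of the Xcr1 subset includes both reference shares. That of the Ccr2 subset includes the lymphoid share and lies above the endothelial one. Whether the UMIs of the reference cells are background or their own expression was not tested. The overlap therefore does not show the source of the Ly6c2 UMIs in either subset. Fn1 stood at 10 of 14 thinned cells in the F13a1 subset, 0 of 29 in the Xcr1 subset and 2 of 37 in the Ccr2 subset, and at 2 of 785 in the endothelial reference. A count of 0 among the 29 cells has an exact interval from 0 to 11.9% for the share with a UMI at that depth.

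Within the F13a1 subset the cells split by antigen presentation genes. The summed UMIs of H2-Aa, H2-Ab1, H2-Eb1 and Cd74, the chains of MHC class II and their invariant chain, were at most 5 in 7 cells and between 58 and 840 in the other 7. The 7 low cells came from suffix 1 (5 cells) and suffix 3 (2 cells), and the 7 high cells from suffixes 1, 2 and 3 (2, 3 and 2 cells). The low cells held 1156 CPM of Ly6c2, 2376 of Fn1 and 2103 of Hp. The high cells held 240.5, 1157 and 309 CPM of the same genes. Their 10-marker sum had a median of 126 UMIs in the low cells (17 to 214) and 23 in the high cells (9 to 94), so the ranges overlapped. Apoe, the lipid carrier apolipoprotein E, was counted in 2 of the 7 low cells and in all 7 high cells, and C1q in 0 and 3. Median depth was close, at 10991 and 12236 UMIs. This split was made after the values were seen and has no test.

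Several values of the F13a1 subset rested on single cells. Chil3 stood at 1029 CPM in the subset, and 1 cell held 90 of its 154 UMIs there. Thbs1, the matrix glycoprotein thrombospondin, stood at 688 CPM with 77.7% of the subset's UMIs in 1 cell, and Clec4e, a receptor for mycobacterial glycolipid, at 394 CPM with 59.3% in 1 cell. Slpi, a secreted protease inhibitor, stood at 441 CPM with 40.9% in 1 cell. F13a1 itself stood at 1076 CPM and was counted in 13 of the 14 cells. Since the split used F13a1 and Chil3, their levels and cell counts here were set in part by the split. Gda, guanine deaminase, stood at 561 CPM in 12 cells. Mcemp1, a membrane protein of mast cells and monocytes, stood at 321 CPM in 12 cells, with 18.8% of the subset's UMIs in the highest.

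The Xcr1 subset carried the genes of type 1 dendritic cells, and its values are given beside those of the 44 barcodes outside the gate that were chosen for Xcr1 and Clec9a. Irf8, the transcription factor that type 1 dendritic cells require, stood at 2319 CPM in all 29 cells with a UMI, against 207 in the F13a1 subset, 225 in the Ccr2 subset and 1726 in the 44 outside barcodes. Cst3, the protease inhibitor cystatin C, stood at 17214 CPM against 1878, 1829 and 16937. Cd24a, a surface glycoprotein, stood at 397 CPM against 0, 5.997 and 349, and Naaa, an acid amidase, at 1339 against 154, 74.96 and 973. Flt3, the receptor for the dendritic cell growth factor, stood at 229 CPM in the subset and 229 in the outside barcodes. Macrophage genes were near the floor: Csf1r, the receptor for the macrophage growth factor, stood at 19.3 CPM and Apoe at 27.0 CPM. What placed these cells inside the gate was Ccr2 at 524 CPM, against 266 in the outside barcodes, and Lyz2 at 738 CPM, against 542. Both are gate genes and the 44 barcodes were taken from outside the gate, so this order was set in part by the rule. Among all kept barcodes 126 had at least 3 UMIs of Xcr1 and Clec9a together, and 25 of those were gated. The 44 are part of the rest, since the limits on Kupffer and endothelial genes and Siglech left others out, and Clec9a had a UMI in 288 of 894 cells gated as endothelial.

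The Ccr2 subset carried macrophage genes at levels between the F13a1 subset and the Kupffer gate. The list of 19 macrophage differentiation genes summed to 14123 CPM in the Ccr2 subset, 5701 in the F13a1 subset, 116 in the Xcr1 subset and 47566 in cells gated as Kupffer cells. In the nonclassical gate the list summed to 5026 CPM. Apoe, the most abundant gene of the list, is not confined to macrophages here, with a UMI in 118 of 122 nonclassical and 855 of 894 endothelial cells. In the Ccr2 subset Apoe stood at 7979 CPM, C1qa at 1829 and C1qb at 1967, against 15840, 5794 and 4576 in the Kupffer gate. Vsig4, the complement receptor of Kupffer cells, and Clec4f, their lectin, had 0 UMIs in all gated cells. Cx3cr1, the fractalkine receptor, stood at 387 CPM, close to the 375 of the nonclassical gate, while Kupffer cells had 17.9. Csf1r stood at 825 CPM. MHC class II and costimulation genes summed to 43826 CPM, nearly the 43798 of the Xcr1 subset, and to 21976 in the F13a1 subset.

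For description, the Ccr2 subset was divided by C1q at a cut set after the values were seen, with no test. Cells with sums of 2 and 3 UMIs lay on either side, so the cut did not fall in a gap. In 23 of the 37 cells the 3 chains summed to at least 3 UMIs, with a median of 72, and in 14 they summed to 2 or less. Apoe stood at 11589 CPM in the 23 cells and 3542 in the 14. Ly6c2 had 1 UMI in the 23 cells (5.44 CPM) and 31 UMIs over 8 of the 14 (207 CPM). The 10-marker sum had a median of 5 UMIs in the 23 cells (0 to 19) and 13.5 in the 14 (1 to 31), at median depths of 6617 and 12016 UMIs. The 23 cells lay in the libraries as 4, 8 and 11 for suffixes 1, 2 and 3, and the 14 as 2, 7 and 5. No C1q-rich cell of the Ccr2 subset had more than 1 UMI of Fn1 or of Hp.

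**Figure D2:**
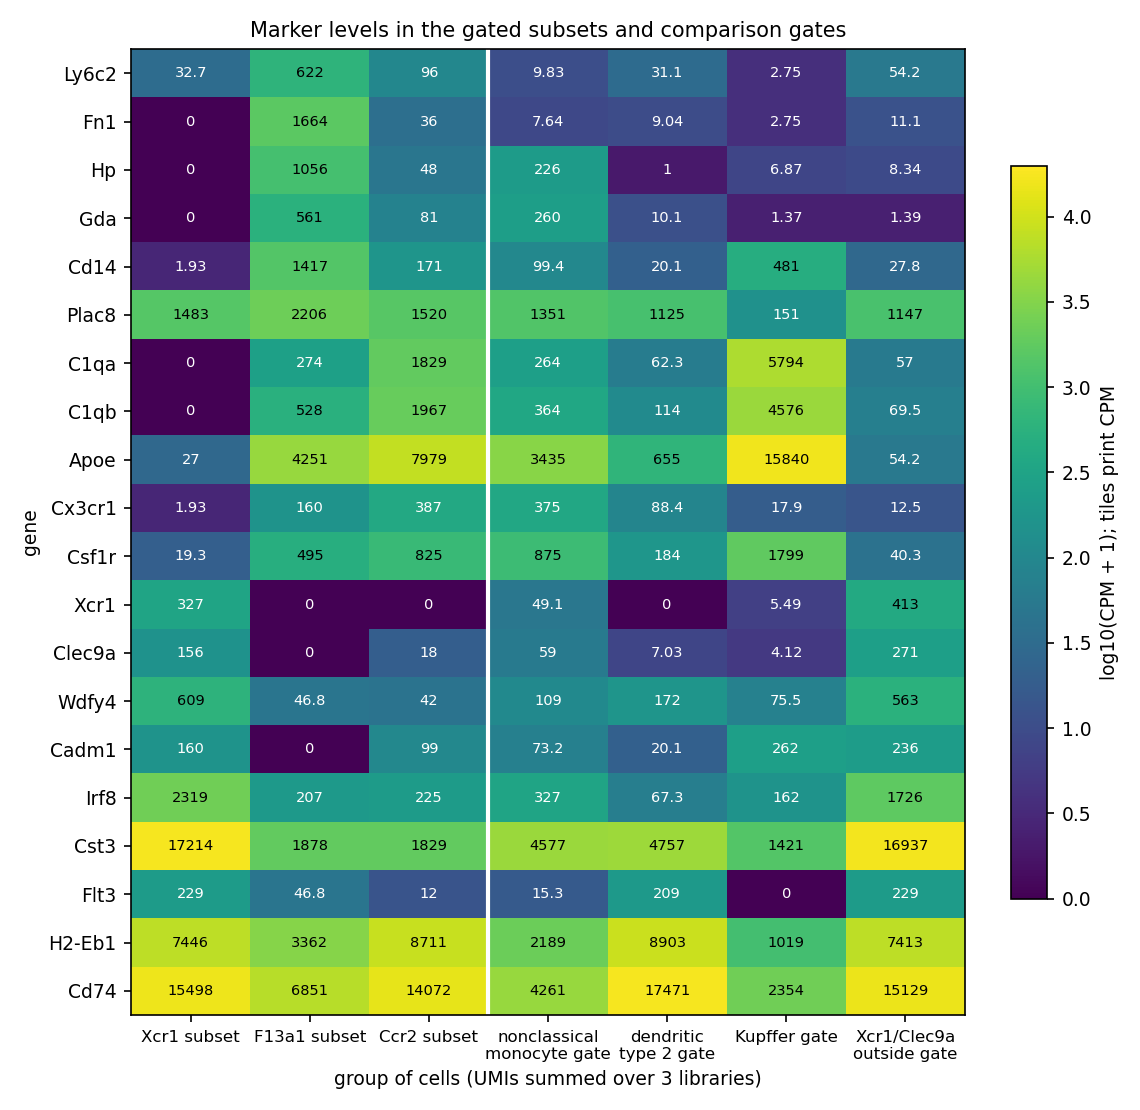
Tiles give the level of 20 genes (rows) in the 3 subsets of the gated cells, 3 comparison gates and the barcodes with Xcr1 or Clec9a outside the gate (columns), as CPM of UMIs summed over the 3 libraries, with colour on a log10(CPM + 1) scale. The column of the Xcr1 subset resembles the last column, Fn1, Hp and Cd14 are highest in the F13a1 subset (1664, 1056 and 1417 CPM), and C1qa reaches 1829 CPM in the Ccr2 subset against 5794 in the Kupffer gate.

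Kupffer markers, a list of 8 genes that includes the 3 C1q chains, summed to 1839 CPM in the gated cells. By subset they summed to 5046 CPM in the Ccr2 subset, 1003 in the F13a1 subset and 19.3 in the Xcr1 subset. The C1q chains alone gave 5043, 1003 and 0 CPM in the same order, so these sums repeat the C1q levels in the Ccr2 and F13a1 subsets. Clec4f, Cd5l and Marco of the list were capped by the gate. The part of Kupffer cell transcripts in the levels of macrophage genes was not tested. The gate itself capped 3 of the 6 neutrophil markers, which summed to 38.9 CPM, so their low level was set in part by the rule. Retnlg, Cxcr2, S100a8 and Mmp9 were at 0 UMIs. Natural killer, T and basophil markers summed to 0.998, 0.998 and 0 CPM, with Ncr1, Cd3e and Mcpt8 at 0. Sinusoidal endothelial markers summed to 22.0 CPM, with a range over the 3 subsets of 11.6 to 41.98, and hepatocyte markers to 64.8 CPM, with 30.8, 26.7 and 135 CPM in the Xcr1, F13a1 and Ccr2 subsets. A doublet caller (Scrublet, run per library) marked 23 of the 3230 kept barcodes and 0 of the gated cells.

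Each comparison gate was set against the gated cells over the same libraries. A gene was compared when it reached 50 CPM in either group, and genes of any gate rule, mitochondrial genes and ribosomal protein genes were left out. It was called higher or lower at a ratio of at least 2 with the same side of 1 in 3 of 3 libraries. With 1 library per treatment and no map to treatments there is no test, and cells were not used as replicates. Because the Xcr1 subset holds 51.8% of the gated UMIs, each count is also given for the 51 cells without it, a choice made after seeing the data.

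Against 122 cells gated as nonclassical monocytes (Ace, Cd300e, Ear2 and Treml4), 202 of 3234 genes were called higher in the gated cells, 6.25% of those compared, and 512 were called lower, 15.8%. Nonclassical monocytes are the long-lived descendants of classical ones that patrol the vessel wall. Without the Xcr1 subset 209 of 3255 genes were higher (6.42%) and 419 lower (12.9%). Only 85 of the 202 higher genes were also called higher without that subset, against 337 of the 512 lower genes. The median log2 ratio over all compared genes was -0.19, so ratios are read against that shift. With mitochondrial and ribosomal genes out of the totals, 334 genes were higher and 505 lower, which moved the share of higher genes among those called from 28.3% to 39.8%.

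Classical monocyte markers gave 4 higher and 2 lower of 10 compared genes, with a median ratio of 1.16 beside 0.875 over all compared genes. Of all compared genes 6.25% were called higher and 15.8% lower, and 6.42% and 12.9% without the Xcr1 subset. Ly6c2 stood at 225, 68.9 and 171 CPM for suffixes 1, 2 and 3 in the gated cells and at 9.83 CPM in the nonclassical gate. It was the lowest in suffix 2, and all 3 libraries lay above the nonclassical level, for a ratio of 14.4 (7.38 to 32.2). Fn1 had a ratio of 34.1 (16.3 to 85.6) and Cd14 2.71 (2.13 to 3.48). Mgst1, a glutathione transferase, was called lower at 0.166 and Itgam, the CD11b integrin chain, at 0.325. Without the Xcr1 subset 5 of 11 were higher and 1 lower, Ms4a4c having joined and Itgam having left.

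Presentation genes were higher in the gated cells than in the nonclassical gate, with 5 of 9 compared genes called and none lower, and a median ratio of 3.22. The shares over all compared genes were 6.25% higher and 15.8% lower, for this and the following lists. Cd74 stood at 10713, 14403 and 14854 CPM for the 3 suffixes against 4261 CPM, a ratio of 3.22 (3.11 to 3.34), and H2-Eb1 had a ratio of 3.32 (3.16 to 3.49). Cd74 kept a ratio of 2.78 without the Xcr1 subset. Chemokines gave 3 higher and 0 lower of 9. Cxcl9, an interferon-gamma-induced attractant of T cells, stood at 291, 475 and 214 CPM against 16.4, a ratio of 20.6 (12.3 to 37.2). Ccl4, an attractant of monocytes and lymphocytes, had a ratio of 16.7, with 74.0% of its gated UMIs in 1 cell. Cholesterol synthesis gave 4 higher of 7, among them Hmgcs1 at 4.42 and Fdps at 7.399, and 0 of 3 compared genes without the Xcr1 subset.

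Lower genes included those that mark the nonclassical state. Over all compared genes 15.8% were called lower and 6.25% higher, and 12.9% and 6.42% without the Xcr1 subset. Nr4a1, a nuclear receptor that nonclassical monocytes need, stood at 194 CPM against 1027, a ratio of 0.189 (0.161 to 0.220), and Pou2f2, a transcription factor, at 165 against 1184. Cebpb, a transcription factor of myeloid survival, stood at 461 against 1984 (0.232, 0.209 to 0.257). Of 16 adhesion and migration genes 9 were lower and 3 higher, with Itgb2, the shared chain of the leukocyte integrins, at 0.263 and the receptor Cxcr4 of the chemoattractant list at 0.180. Fc receptors gave 4 lower and 0 higher of 8, with Fcgr4 at 0.0824 and the shared signalling chain Fcer1g at 0.354. Without the Xcr1 subset the ratio of the summed Fc receptor list went from 0.395 to 0.725. That of the chemoattractant list went from 0.443 to 0.7855, while the adhesion list stayed close, at 0.425 and 0.421. NF-kB feedback genes gave 8 lower of 16 and 1 of 18 without the Xcr1 subset. Fabp4, a fatty acid carrier, was at 3.99 CPM against 656. Endothelial markers summed to 378 CPM in the nonclassical gate and 22.0 in the gated cells, and their part in such genes was not tested.

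Against 73 cells gated as type 2 conventional dendritic cells (Cd209a, Clec10a and Mgl2 with MHC class II), 157 of 2915 genes were called higher, 5.39%, and 109 lower, 3.74%. Type 2 dendritic cells present antigen mainly to helper T cells. Without the Xcr1 subset 331 of 3076 were higher (10.8%) and 175 lower (5.69%), and 110 and 72 of the first counts were called again. Leaving out suffix 2, which held 44 of the 73 dendritic cells, gave 256 and 184.

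Monocyte and macrophage genes stood above the type 2 dendritic level, beside 5.39% called higher and 3.74% lower over all compared genes. Classical monocyte markers gave 6 higher and 1 lower of 10, with a median ratio of 7.79 beside 0.971 over all compared genes. Hp stood at 427, 49.2 and 154 CPM for suffixes 1, 2 and 3 against 1.00 CPM from 1 UMI, a ratio of 173 with an interval of 30.6 to 6863. Cd14 had a ratio of 13.4 (8.51 to 22.3) and Ly6c2 4.55 (3.07 to 6.94). Macrophage differentiation genes gave 6 higher of 7, with C1qa at 10.4 (8.03 to 13.8) and Apoe at 5.04 (4.64 to 5.49). The pooled ratio of the list, 5.78, differed widely between libraries, at 30.5, 2.504 and 70.6 for suffixes 1, 2 and 3, and it was 60.1 without suffix 2 and 2.90 without suffix 3. Lysosomal genes gave 8 higher and 0 lower of 19, among them Psap, a precursor of lipid-hydrolase activators, at 2.25 (2.12 to 2.39) and Lamp1, a lysosomal membrane protein, at 2.77. Msr1, a scavenger receptor for modified lipoproteins, had a ratio of 29.8 (9.87 to 147), and C3, the central complement protein, 116 (20.5 to 4627), against 1 UMI.

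Most presentation and S100 genes were not called, as were most of all compared genes, of which 5.39% were called higher and 3.74% lower. MHC class II and costimulation gave 1 higher and 1 lower of 11, with Cd74 at 0.786 (0.769 to 0.804) and H2-Eb1 at 0.815, both below the threshold for a call. Of 14 S100, annexin and galectin genes 3 were lower and 0 higher, among them the small calcium-binding proteins S100a4 at 0.283 and S100a6 at 0.398. Proliferation genes gave 3 lower of 7, and Top2a, the topoisomerase of dividing cells, stood at 3.99 CPM against 62.3. Tnfsf9, the ligand of 4-1BB, stood at 21.9 against 324, and Klrd1, the NK receptor chain CD94, at 16.0 against 225. Irf8 had a ratio of 19.4 over all gated cells and of 3.26 without the Xcr1 subset.

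Against 146 cells gated as Kupffer cells (Clec4f with Cd5l and Marco), 483 of 3369 genes were called higher, 14.3%, and 758 lower, 22.5%. Without the Xcr1 subset 423 of 3338 were higher (12.7%) and 570 lower (17.1%), and 307 and 507 of the first counts were called again. The Kupffer cells were shallower, with a median of 3912 UMIs and 9.30% mitochondrial UMIs against 3.60% in the gated cells. With mitochondrial and ribosomal genes out of the totals, 812 genes were higher and 658 lower, and the share of higher genes among those called went from 38.9% to 55.2%. The median log2 ratio went from -0.19 to 0.11.

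Genes lower than in the Kupffer gate included most of those of resident macrophages, beside 22.5% called lower and 14.3% higher over all compared genes. Macrophage differentiation genes gave 17 lower and 0 higher of 18, with a median ratio of 0.0472 beside 0.879 over all compared genes. Fcna, a ficolin, stood at 0.998 CPM against 1534, Slc40a1, the iron exporter ferroportin, at 1.995 against 2184, and Cd163, the haemoglobin scavenger receptor, at 0.998 against 773. Vsig4 had 0 UMIs in the gated cells and 2123 CPM in the Kupffer gate, a ratio of at most 0.00141 when 3 UMIs over the gated cells are taken as the floor. Of 17 phagocytic and scavenger receptors 13 were lower, of 23 lysosomal genes 14, of 12 iron and haem genes 10 and of 12 LXR target and sterol efflux genes 8. Lrp1, a large endocytic receptor for lipoproteins, stood at 98.8 CPM against 538 (0.184, 0.146 to 0.229). Hmox1, which degrades haem, stood at 29.9 against 1684.

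Genes higher than in the Kupffer gate included monocyte and S100 genes. Over all compared genes 14.3% were called higher and 22.5% lower, and the counts below are read beside these shares. Classical monocyte markers gave 7 higher and 0 lower of 10, with Plac8 at 10.6 and Ly6c2 at 51.6 (14.0 to 430). S100, annexin and galectin genes gave 10 higher and 2 lower of 16, with S100a6 at 32.9 (19.8 to 59.2) and Vim, the intermediate filament vimentin, at 6.11 (5.19 to 7.25). Immediate early genes gave 10 higher and 0 lower of 15 and heat shock genes 3 of 11, with Hspa1a at 22.8 (16.5 to 32.4). Napsa, an aspartic protease, stood at 377 CPM against 1.37 from 1 UMI, a ratio of 275 with an interval of 49.0 to 10875. Adhesion genes went both ways, with 8 higher and 5 lower of 15.

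**Figure D3:**
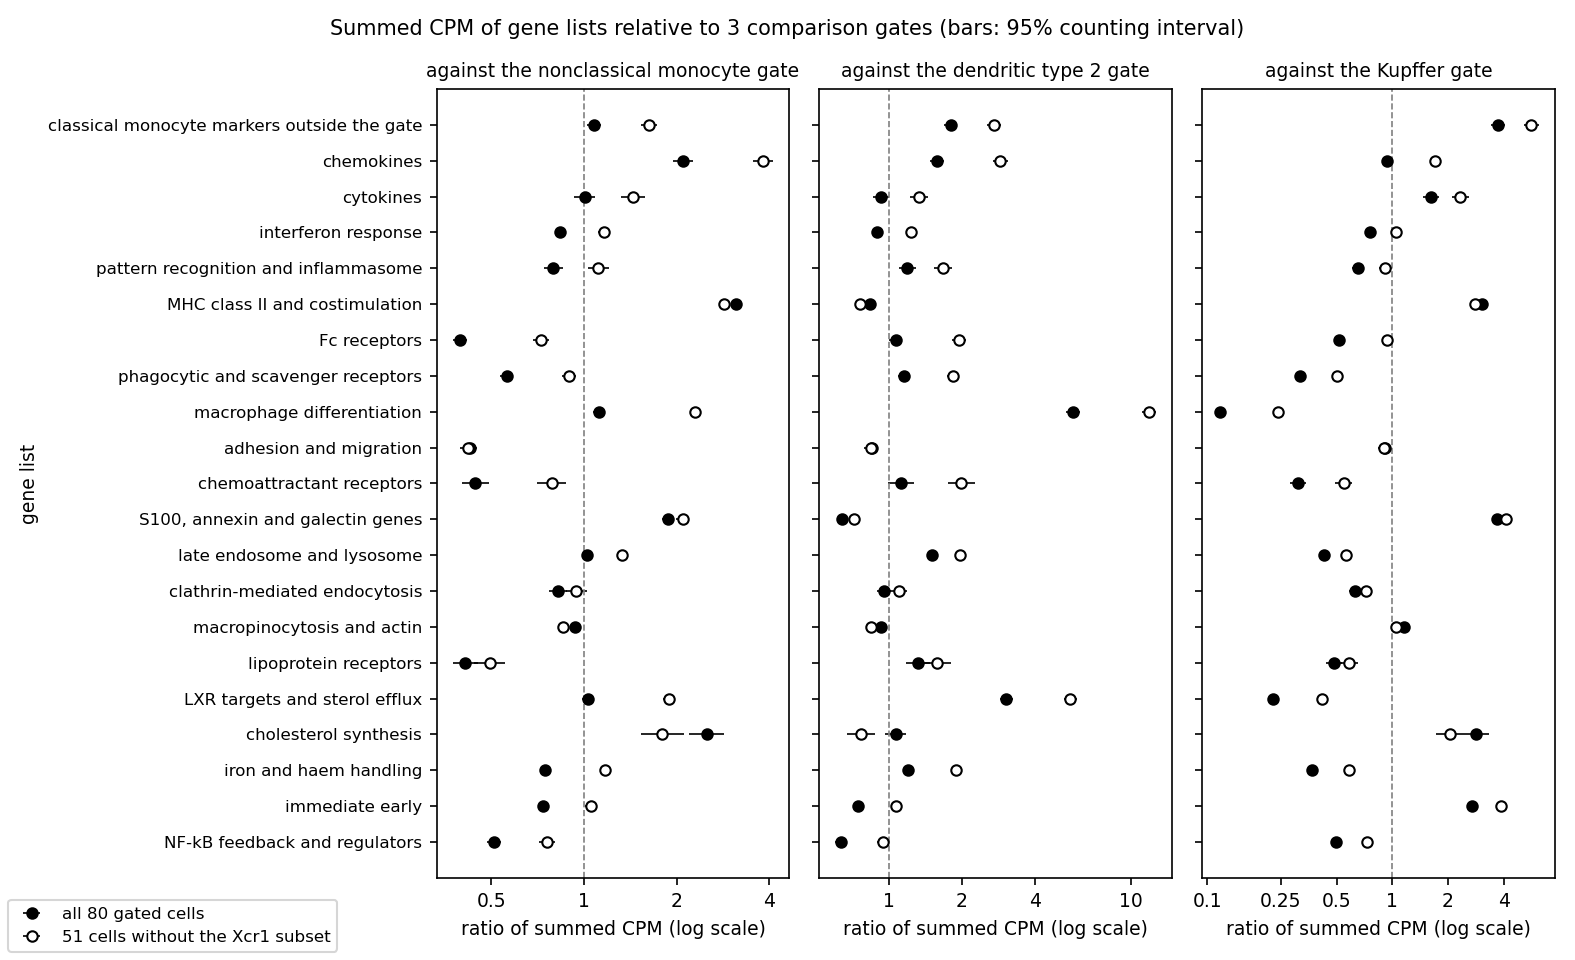
The x axes give the ratio of summed CPM of 21 gene lists (rows) in the gated cells to that in the nonclassical monocyte, type 2 dendritic and Kupffer gates, on log scales, with filled circles for all 80 gated cells, open circles for the 51 without the Xcr1 subset and bars for 95% counting intervals. The sums hold every measured gene of a list, gate genes included. H2-Aa and H2-Ab1 of the MHC class II list were required by the type 2 dendritic gate, so that ratio was set in part by the rule. Macrophage differentiation stands at 1.12, 5.78 and 0.118 for all gated cells and at 2.29, 11.9 and 0.242 without the Xcr1 subset, while MHC class II and costimulation moves little. For all gated cells the macrophage list differed widely between suffixes 1, 2 and 3. It stood at 0.775, 0.691 and 1.72 against the nonclassical gate and at 30.5, 2.504 and 70.6 against the type 2 dendritic gate.

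The pooled list ratios cover differences between libraries. Against the nonclassical gate macrophage differentiation stood at 0.775, 0.691 and 1.72 for suffixes 1, 2 and 3, and at 0.724 without suffix 3.

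Uptake genes were compared by list. Clathrin-mediated endocytosis summed to 1715 CPM in the gated cells, 0.823 of the nonclassical level, 0.953 of the type 2 dendritic level and 0.627 of the Kupffer level, with 0, 0 and 0 genes called higher and 2, 1 and 5 lower of 13, 13 and 14. Among all compared genes 15.8%, 3.74% and 22.5% were called lower against the same gates, and 6.25%, 5.39% and 14.3% higher. Clta, a clathrin light chain, stood at 550, 536 and 496 CPM for the 3 suffixes, and Picalm, a clathrin adaptor, at 185, 212 and 244. Macropinocytosis and actin genes had ratios of 0.934, 0.926 and 1.15. Caveolar genes were near the floor, with Cav1 at 0 UMIs and Cavin2 at 1.995 CPM. Lipoprotein receptors were lower than in the nonclassical gate (0.411 in sum, 2 of 7 called lower) and the Kupffer gate (0.485, 3 of 7 lower), and not lower than in the type 2 dendritic gate (1.32, 1 of 7 higher). By subset they summed to 539, 749 and 816 CPM in the Xcr1, F13a1 and Ccr2 subsets. Lrp1 stood at 3.85, 160 and 219 CPM in that order, and Cd36, a scavenger receptor for oxidised lipoproteins, at 141, 6.68 and 45.0.

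Interferon response genes and chemokines were summed by subset. Interferon response genes summed to 3898 CPM in the Xcr1 subset, 10126 in the F13a1 subset and 7697 in the Ccr2 subset, and the pooled ratio to the nonclassical gate was 0.835 with all gated cells and 1.16 without the Xcr1 subset. Ifitm3, an endosomal antiviral protein, stood at 651, 3255 and 1787 CPM in the Xcr1, F13a1 and Ccr2 subsets and Ifi27l2a at 216, 2252 and 1694. Isg15, a ubiquitin-like interferon product, stood at 42.4, 134 and 144 CPM. Chemokines summed to 543, 4171 and 4273 CPM. The sum of the Ccr2 subset rested in part on 1 cell with 298 UMIs of Ccl4, 74.0% of those in all gated cells. Of the gated Cxcl2 UMIs 53.1% also lay in 1 cell. Ccl6, a monocyte chemokine, stood at 50.1, 1584 and 516 CPM and Ccl9 at 0, 722 and 447. Over all 31 lists and 3 gates, 13 of 93 ratios lay on the other side of 1 once the Xcr1 subset was left out.

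The libraries differed in which subsets they held. Suffix 1 had 5 cells of the Xcr1 subset, 7 of the F13a1 subset and 6 of the Ccr2 subset. Suffix 2 had 14, 3 and 15, and suffix 3 had 10, 4 and 16. The gate thus held F13a1 subset cells at 38.9% in suffix 1, 9.38% in suffix 2 and 13.3% in suffix 3, from 7, 3 and 4 cells. No interval was computed for these shares from few cells, and their difference was not tested.

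**Figure D4:**
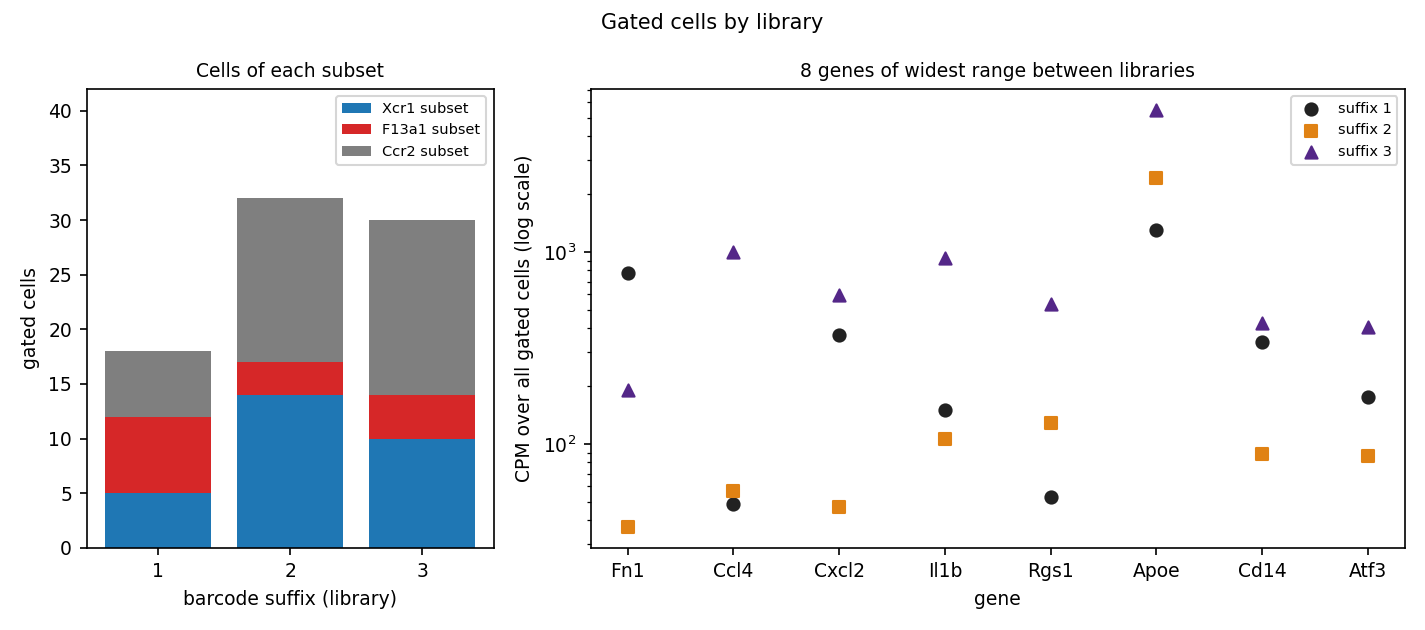
Left, gated cells per library (barcode suffix) stacked by subset; right, CPM over all gated cells of a library for the 8 genes outside the gate rules with the widest range between libraries, on a log scale. Fn1 is highest in suffix 1 (775 CPM), and Ccl4, Cxcl2, Il1b, Rgs1, Apoe, Cd14 and Atf3 are highest in suffix 3.

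Of 495 genes at 200 CPM or more, 53 had a ratio of at least 2 between the highest and lowest library. Fn1 stood at 775 CPM in suffix 1, 36.9 in suffix 2 and 190 in suffix 3, and within the F13a1 subset alone at 2246, 397 and 1441 CPM. Apoe stood at 1303, 2434 and 5493 CPM, with 6.92% of its UMIs in the highest cell. Il1b, the cytokine interleukin-1 beta, stood at 150, 106 and 927 CPM, with 30.8% of its UMIs in 1 cell. Ccl4 stood at 48.4, 56.6 and 1000.4 CPM and Cxcl2, which draws neutrophils, at 370, 46.8 and 599, with 74.0% and 53.1% of their UMIs in 1 cell. Rgs1, a damper of chemokine receptor signalling, and Atf3, a stress-induced transcription factor, had 54.6% and 55.4% in 1 cell. Cd14 stood at 339, 88.6 and 426 CPM with 25.9% in 1 cell. The part of subset numbers in these ranges was not tested, and since no suffix is tied to a treatment, none of them is a comparison of treatments.

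The genes highest in the gate relative to every comparison gate split between the subsets. Fn1 led at 28.8 times the next gate, followed by Thbs1 at 19.4 and Slpi at 12.1, and all 3 were carried by the F13a1 subset. Snx22, a sorting nexin, and Anpep, the aminopeptidase CD13, came next at 7.88 and 6.14 times. Both were carried by the Xcr1 subset, at 133 and 116 CPM, with 95.9 and 70.9 CPM in the Xcr1 or Clec9a barcodes outside the gate. Among the 12 leading genes 3 were highest in the F13a1 subset and 9 in the Xcr1 subset.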

How the data were processed

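Single-cell 3' RNA libraries of sorted liver cells were read from 1 deposited matrix of raw UMI counts (31053 genes, 4638 barcodes) that the authors made by pooling the 3 libraries, with no normalization applied. Per the submitters' processing notes, which give no roles, the tools were Cell Ranger, STAR, Seurat and edgeR and the genome build mm10, and the software version 3.1.0 is given per the file headers. Barcodes with under 200 genes or over 20% mitochondrial UMIs were left out. Counts were summed over gated cells and scaled to CPM. Ratios carry exact conditional 95% intervals, levels Poisson and shares Clopper-Pearson intervals. No model was fitted, and edgeR 4.0.16 (R 4.3.3) supplied TMM factors for 1 alternative. Scrublet came from scanpy 1.11.5, with Python 3.11.15, numpy 2.4.6, scipy 1.17.1 and pandas 2.3.3. Detection was compared after thinning each cell to 2000 UMIs. The ratio calculation was tested on simulated data.

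The comparison gates asked for at least 4 UMIs over Ace, Cd300e, Ear2 and Treml4 with 3 of Lyz2 (nonclassical monocytes), at least 3 over Cd209a, Clec10a and Mgl2 with 3 over H2-Aa and H2-Ab1 (type 2 dendritic cells), and at least 3 of Clec4f with 10 over Clec4f, Cd5l and Marco (Kupffer cells). Named genes were those of the gate and Ly6c2, the largest and smallest ratios among called genes, the most abundant members of each of 31 gene lists, the 8 genes of widest range between libraries and the leading genes of each subset. Other named genes were chosen after their values were seen. The members and lists were chosen with earlier results of these data known. Alternatives were the mitochondrial limit, doublet removal, thinning, scaling, totals, gate thresholds, the CPM minimum, library weights, each library left out and, added after seeing the data, the Xcr1 subset left out. Some genes of the lists are not reported here by name.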

Additional observations from a re-analysis of the deposited data

Results flagged for a closer look

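Among the 1408 barcodes that the cell filter removed, 3 met the UMI rules of the gate, 1 in suffix 1, 2 in suffix 2 and 0 in suffix 3. Their median depth was 3384 UMIs and their median mitochondrial share 23.5%, from 20.0% to 32.5%. None had a UMI of Ly6c2. They lie outside every comparison above, and with 3 barcodes no comparison was made.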

How the results depend on the processing

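No paired analysis was possible because each treatment has 1 library and no source used here ties a barcode suffix to a treatment. The gated share of 2.48% became 3.29% with at most 10% mitochondrial UMIs, 1.67% with both gate minimums at 5 and 1.58% without the Xcr1 subset, and ran from 2.27% to 2.66% with each library left out. With each cell thinned to 2000 UMIs, genes higher than in the nonclassical gate numbered 362, and against the type 2 dendritic gate 338 were higher and 245 lower. With genes from 20 CPM compared, 429 were higher and 817 lower (nonclassical), 320 and 247 (dendritic), and 858 and 1221 (Kupffer), since more genes entered. Totals without mitochondrial and ribosomal genes gave 334 higher (nonclassical) and 812 higher (Kupffer). Without the Xcr1 subset 331 were higher and 175 lower than in the dendritic gate. Leaving out a library gave 229 to 252 higher and 497 to 604 lower genes (nonclassical), 161 to 256 and 116 to 184 (dendritic), and 523 to 530 and 749 to 808 (Kupffer). A call then asked for the same side of 1 in the remaining libraries only, a looser rule, so these counts do not isolate the effect of a library. The summed ratio of caveolar genes to the nonclassical gate, 0.367, became 1.05 after thinning, at levels near the floor. Where fewer genes or cells do not show it, the cause was not tested. Of 1023 list ratios under alternatives, 581 lay within the first interval and 441 outside it. The other 1 was the caveolar ratio above, which also lay outside its first interval. It was counted apart because it was lower by 2-fold or more at first and then crossed 1. The F13a1 subset, 14 cells and 149617 UMIs with a floor of 20.1 CPM, has the least depth.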
